A study of Homo sapiens with 12 samples.

Results

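The genes described here are the 37 genes of the human mitochondrial genome, whose symbols begin with MT-, and 390 nuclear pseudogenes whose names mark them as copies of a mitochondrial gene. The copies were taken by name: a symbol that began with MTCO, MTND, MTATP, MTCYB or MTRNR and held a P followed by a number. Of the 60107 genes in the count table, 427 met this rule. The MT- genes comprised 13 mRNAs, 2 ribosomal RNAs and 22 transfer RNAs. The copies were annotated as 225 processed and 165 unprocessed pseudogenes, and 0 of them were MTRNR copies. The 13 nuclear MTRNR2L genes, copies of MT-RNR2, fell outside the rule by their names. Neighbouring copies no more than 10000 bases apart formed 143 blocks, since a single insertion can carry several genes. Of the 390 copies, 86 lay inside a protein-coding gene, and 25 of those had the same strand as that gene.

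The libraries came from U251, a human glioblastoma cell line, under 2 labels, U251P and U251T, which the labels do not explain further. Each line was treated with vehicle (DMSO) or with carmofur, a derivative of 5-fluorouracil that inhibits acid ceramidase, giving U251P vehicle, U251P carmofur, U251T vehicle and U251T carmofur with 3 libraries each. By the labels, the cells were serum starved for 16 h and then held for 24 h in full medium with the agent, and the study adds that vehicle or carmofur, at a single dose, was also present during the starvation. The study describes its experiments in general as biological replicates, each with technical replicates, and the labels do not say how the 3 libraries of a group relate to these, so the p-values measure the spread between the libraries. Libraries were made with a 3′ kit that primes on poly(A) tails and reads the end of the transcript, so counts were not divided by gene length and are given per 1000000 counts of the library (CPM).

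The mitochondrial genome is a small circle transcribed from both strands as long precursors, from which transfer RNAs are cut out to release the mRNAs and ribosomal RNAs between them. Its mRNAs encode core subunits of respiratory complexes I, III, IV and V, and most of them carry short poly(A) tails. Fragments of mitochondrial DNA have inserted into the chromosomes over evolution, and these nuclear copies are generally not translated into functional proteins, since the mitochondrial genetic code differs and the copies have accumulated changes.

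The copies differed widely in their likeness to the mitochondrial gene, with a median identity of 73.7% over the aligned bases. A stretch of up to 90 bases near the annotated 3′ end is shown for the MT-CO3 copies that held most copy counts in U251T, beside the mitochondrial gene itself. The kit reads the end of the transcript, but only counts per gene were used, so where reads fell within a copy is not known. Lower case letters match MT-CO3 and capitals mark letters that differ from it.
MT-CO3: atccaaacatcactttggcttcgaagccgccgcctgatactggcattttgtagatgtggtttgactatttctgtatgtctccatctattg
MTCO3P13: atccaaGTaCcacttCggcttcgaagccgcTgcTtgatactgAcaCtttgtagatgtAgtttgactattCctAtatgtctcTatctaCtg
MTCO3P17: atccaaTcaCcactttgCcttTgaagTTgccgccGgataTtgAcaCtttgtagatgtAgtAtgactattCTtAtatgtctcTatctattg
MTCO3P22: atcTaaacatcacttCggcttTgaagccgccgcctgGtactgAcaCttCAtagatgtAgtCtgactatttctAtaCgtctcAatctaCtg
MTCO3P35: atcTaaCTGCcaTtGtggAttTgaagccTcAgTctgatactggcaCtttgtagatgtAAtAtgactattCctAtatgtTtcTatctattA
MTCO3P24: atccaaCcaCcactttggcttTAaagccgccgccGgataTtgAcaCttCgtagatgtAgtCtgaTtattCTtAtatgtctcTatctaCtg
The same stretch is shown for MTATP6P1, the copy with most counts in U251P, for 2 copies of MT-CO2 that had counts in opposite lines, and for MTCO1P40, which had counts in both. Capitals again mark letters that differ from the mitochondrial gene above each copy.
MT-ATP6: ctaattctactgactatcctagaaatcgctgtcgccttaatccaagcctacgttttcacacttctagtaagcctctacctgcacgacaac
MTATP6P1: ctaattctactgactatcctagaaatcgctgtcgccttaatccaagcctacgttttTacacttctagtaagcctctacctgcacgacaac
MT-CO2: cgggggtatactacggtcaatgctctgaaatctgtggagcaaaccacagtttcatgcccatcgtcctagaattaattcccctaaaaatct
MTCO2P17: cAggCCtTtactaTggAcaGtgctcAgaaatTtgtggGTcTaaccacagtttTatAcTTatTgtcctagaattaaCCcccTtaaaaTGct
MTCO2P12: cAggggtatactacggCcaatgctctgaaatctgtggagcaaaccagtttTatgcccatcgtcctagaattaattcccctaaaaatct
MT-CO1: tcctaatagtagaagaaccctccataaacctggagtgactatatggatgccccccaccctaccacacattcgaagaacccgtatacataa
MTCO1P40: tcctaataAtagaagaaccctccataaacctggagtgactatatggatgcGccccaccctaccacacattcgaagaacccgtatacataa

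In hg38 coordinates, the build named in the submitters' processing notes, the MT-CO3 stretch was M:9890-9979 (+). The stretch of MTCO3P13 (ENSG00000264316) lay at chr17:22531294-22531383 (+), with 13 mismatches. That of MTCO3P17 (ENSG00000237542) lay at chr2:202617115-202617204 (+), with 16 mismatches, and that of MTCO3P22 (ENSG00000270388) at chr5:100051143-100051232 (−), with 14. That of MTCO3P35 (ENSG00000242836) lay at chr3:106896898-106896987 (−), with 21 mismatches, and that of MTCO3P24 (ENSG00000262158) at chr16:10723843-10723932 (−), with 17. These 5 copies shared the MT-CO3 letter at 53 of the 90 positions, and at 3 positions all 5 had the same letter and MT-CO3 another. Over the 509 positions of the gene that all 5 covered, 286 had the MT-CO3 letter in every copy, 11 had a shared different letter, and 212 differed among the copies.

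The stretch of MTATP6P1 (ENSG00000248527) lay at chr1:634281-634370 (+) and was aligned to M:9112-9201, with 1 mismatch. That of MTCO2P17 (ENSG00000233888) lay at chr2:202615415-202615504 (+) and was aligned to M:8151-8240, with 22 mismatches. MTCO2P12 (ENSG00000229344), at chr1:633322-633409 (+), had 3 mismatches and lacked 2 bases of the same MT-CO2 stretch. That of MTCO1P40 (ENSG00000262902) lay at chr17:53106263-53106352 (+) and was aligned to M:7348-7437, with 2 mismatches. None of these copies lay inside a protein-coding gene. The reads were 75 bases long. Only 8 of the 390 copies held a window of 75 bases identical to an MT- gene, so that an error-free read from that window could not be placed by its letters alone. How the pipeline placed such reads is not given in the sources used here.

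Library totals ran from 3295045 to 6350873 counts in U251P and from 383633 to 2817379 in U251T. The libraries labelled U251T stood apart from those labelled U251P in genes that mark the cell type. NES, an intermediate filament of neural progenitors, was between 376 and 459 CPM in U251P and between 0 and 2.61 in U251T, and SOX2, a stem cell transcription factor, was between 97.7 and 161 CPM against 0 to 1.03. GFAP, the astrocyte filament, had 1 count over the 6 U251P libraries and 20.9 to 83.0 CPM in U251T. OLIG2, an oligodendrocyte lineage factor, was at 0 in all 12 libraries. The 10 glioma and astroglial markers summed to 4214 to 5427 CPM in U251P and to 7820 to 14185 CPM in U251T, where VIM, an intermediate filament, had a median of 10012 CPM. The epithelial markers summed to 162 to 232 CPM in U251P and to 5.32 to 17.7 CPM in U251T. On that list KRT18 had 4413 counts in U251P and 26 in U251T, KRT8 1684 and 6, and KRT19 127 and 5. CDH1 went the other way, with 0 and 31 counts, and EPCAM had 1 and 0. The summed fibroblast markers were at 18.8 to 23.5 CPM in U251P and 1744 to 2388 in U251T, where COL1A1, a collagen chain, had a median of 1721 CPM, while LUM, another of the 5 markers on that list, was at 0 in all 12. GAPDH, a glycolytic enzyme, had a median of 3327 CPM in U251P and 195 in U251T. The 14449 pseudogenes outside the rule took 0.252% to 0.290% of counts in U251P and 8.58% to 9.74% in U251T. Every comparison of the lines below rests on the 6 U251T libraries, and the part of these features in the members' differences was not tested. The carmofur comparison within U251P uses none of them.

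The question of the line comparison was how RNA from the mitochondrial genome and from its nuclear copies was divided in each line. The MT- genes took 19.5%, 20.6% and 23.9% of all counts in the U251P vehicle libraries and 20.5%, 26.2% and 23.7% in the U251P carmofur libraries. In U251T they took 0.455%, 0.354% and 0.428% with vehicle and 0.559%, 0.444% and 0.881% with carmofur. Every U251P library lay above every U251T library. The mean share was 21.3% ± 2.27 (SD, n = 3) in U251P vehicle and 0.413% ± 0.0522 (SD, n = 3) in U251T vehicle. Over all 12 libraries, permuted within treatment, the mean was 21.9 points lower in U251T by a two-sided exact permutation test (difference -21.9, p = 0.005, the smallest the design allows, adjusted p = 0.01 over 6 share comparisons). Within a treatment, 3 libraries against 3 cannot go below an exact p of 0.1, and both treatments gave that value. In bulk RNA, fewer cells with a transcript and less of it per cell cannot be told apart.

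The nuclear copies went the other way. They took 0.0158%, 0.0164% and 0.0166% of counts in U251P vehicle and 0.0200%, 0.0239% and 0.0150% in U251P carmofur. In U251T they took 1.95%, 2.00% and 2.10% with vehicle and 2.54%, 2.76% and 3.08% with carmofur. Again the lines did not overlap, with the copies 2.39 points higher in U251T (two-sided exact permutation test, p = 0.005, adjusted p = 0.01). For every 1000 MT- counts there were 0.630 to 0.976 copy counts in U251P and 3503 to 6229 in U251T. The pseudogenes outside the rule were also higher in U251T, as given above. The copies nevertheless made up 5.03% to 8.25% of all pseudogene counts in U251P and 17.1% to 26.4% in U251T. At an equal depth of 383633 counts, the expected number of copies with a count was 8.01 to 10.4 in U251P and 76.0 to 91.0 in U251T, whereas the expected number of MT- genes was 29.5 to 32.2 against 13 to 18.

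**Figure D1:**
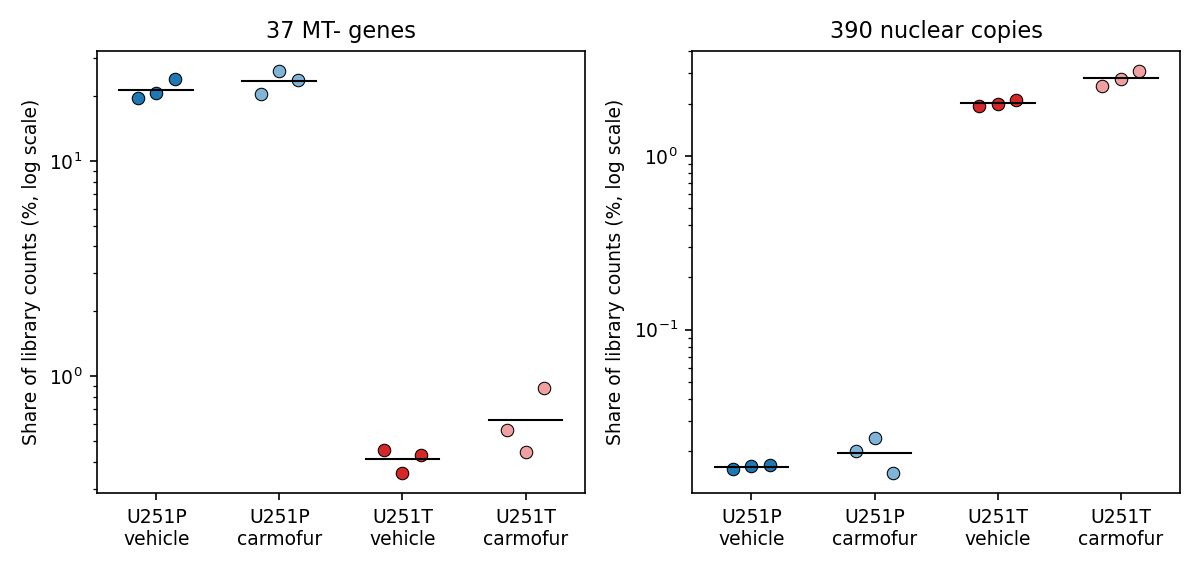
Share of all library counts (%, log scale) taken by the 37 MT- genes and by the 390 nuclear copies, with a point for each of the 12 libraries and a line at each group mean. MT- shares were 19.5% to 26.2% in U251P and 0.354% to 0.881% in U251T, while copy shares were 0.0150% to 0.0239% and 1.95% to 3.08%.

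The ribosomal RNAs held most of the MT- counts in both lines. MT-RNR2, the large ribosomal RNA, was at 91694, 91713 and 105161 CPM in U251P vehicle and at 3805, 3318 and 3713 CPM in U251T vehicle. MT-RNR1, the small ribosomal RNA, was at 45251, 52428 and 68754 CPM in U251P vehicle and at 234, 46.5 and 196 CPM in U251T vehicle. Both were lower in U251T without overlap, and they were not lower by the same factor. There were 49.4 to 67.2 MT-RNR1 counts per 100 MT-RNR2 counts in U251P and 1.40 to 24.1 in U251T. MT-RNR2 made up 43.5% to 47.0% of MT- counts in U251P. In U251T vehicle its part was 83.6%, 93.6% and 86.8%, and in U251T carmofur 84.4%, 83.4% and 65.6%, all above the U251P libraries. The MTRNR2L genes outside the rule took 0.0342% to 0.0508% of all counts in U251P and 0.244% to 0.332% in U251T. Of 9 tested in vehicle, 8 were called higher in U251T and 1 lower, beside 39.3% and 47.6% of all genes. Their part in the MT-RNR2 counts was not tested.

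Of 37 MT- genes, 28 passed the filter on low counts in the vehicle comparison of the lines, and all 28 had an adjusted p under 0.05 in edgeR's quasi-likelihood test and were lower in U251T. Over all 12047 genes tested in that comparison, 47.6% were called lower in U251T and 39.3% higher, with a median log2 fold change of -0.33. With carmofur, 26 of 26 MT- genes tested were lower, beside 49.1% of all 11667 genes lower and 37.1% higher. The MT- log2 fold changes in vehicle ran from -10.38 to -3.76 with a median of -8.09. The MT- genes that passed did so through the U251P libraries, where they were high.

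Complex I mRNAs included MT-ND1, the MT- gene with the smallest difference between the lines in vehicle. It encodes a core subunit of the membrane arm of complex I and was at 1099, 1080.1 and 1109 CPM in U251P vehicle and at 84.6, 74.9 and 97.2 CPM in U251T vehicle. Its vehicle libraries were close together within each line, and the lines differed in vehicle by a log2 fold change of -3.76 (SE 0.161, edgeR adjusted p = 1.03e-18). MT-ND4, another membrane subunit, was at 8251, 9589 and 9934 CPM in U251P vehicle and at 75.3, 12.1 and 23.0 CPM in U251T vehicle, a log2 fold change of -8.09 (SE 0.369). MT-ND6, the mRNA read from the opposite strand of the circle, had 4906 counts over the 6 U251P libraries and 2 over the 6 U251T libraries, a U251T to U251P ratio of 0.00172 (exact 95% counting interval 0.000209 to 0.00623). The other complex I mRNAs, MT-ND2, MT-ND3, MT-ND4L and MT-ND5, were also lower in both treatments.

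MT-CO3, a core subunit of cytochrome c oxidase (complex IV), was at 8692, 10569 and 9839 CPM in U251P vehicle and at 66.1, 12.4 and 47.7 CPM in U251T vehicle, with a log2 fold change of -8.08 (SE 0.344). MT-CO1, the catalytic subunit of the same complex, differed less, from 1935, 2034 and 2209 CPM to 36.1, 33.7 and 53.0 CPM (log2 fold change -5.79, SE 0.196). MT-CO2, MT-CYB of complex III, and MT-ATP6 and MT-ATP8 of the ATP synthase all had a ratio of pooled U251T to U251P CPM near that of MT-CO3. Among the 15 ribosomal RNA and mRNA genes the ratio was 0.0748 for MT-ND1, 0.0382 for MT-RNR2 and 0.0200 for MT-CO1, and the other 12 lay between 0.00172 and 0.00557. The exact counting interval of MT-CO1, 0.0178 to 0.0224, did not reach those 12. These intervals cover counting error only.

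Outside MT-RNR2 and MT-ND1, the U251T libraries held few MT- counts, namely 864, 428 and 266 with vehicle and 746, 681 and 1092 with carmofur. The order of the remaining 13 ribosomal RNA and mRNA genes in each U251T library followed that of the pooled U251P libraries with Spearman's rho of 0.554 to 0.929 across genes. With MT-RNR2 and MT-ND1 included, rho was 0.513 to 0.839 over 15 genes. Genes are not independent replicates, and both values describe these libraries.

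Transfer RNAs, which lack the long poly(A) tails this kit primes on, took 0.0564% to 0.0784% of counts in U251P and 0.000177% to 0.00391% in U251T. MT-TF, the phenylalanine transfer RNA, had 11192 counts in U251P and 20 in U251T, and MT-TL1, a leucine transfer RNA that lies directly after MT-RNR2, had 2730 and 22. The U251T to U251P ratio of MT-TL1 was 0.0341, close to the 0.0382 of MT-RNR2 and above the 0.00755 of MT-TF. MT-TY had 1598 and 2 counts, MT-TP 1393 and 3, and MT-TM 1065 and 1. MT-TK and MT-TN were at 0 in all 12 libraries. All 13 transfer RNA genes tested in vehicle were lower in U251T.

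**Figure D2:**
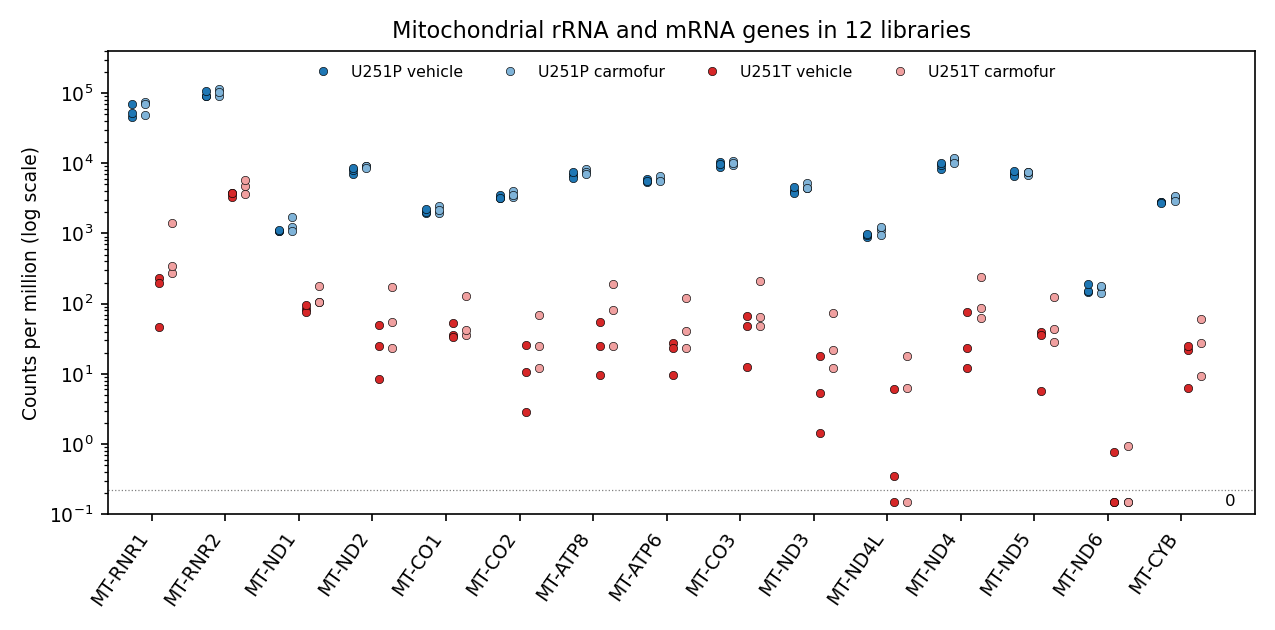
CPM (log scale) of the 2 ribosomal RNA and 13 mRNA genes of the mitochondrial genome, with a point for each of the 12 libraries and libraries at 0 drawn under the dotted line. For each of the 15 genes, all 6 U251P libraries lie above all 6 U251T libraries, and the gap is smallest for MT-ND1, MT-RNR2 and MT-CO1.

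Of the 390 copies, 199 had at least 1 count in some library, 72 in U251P and 163 in U251T, and 36 of these in both lines. In the vehicle comparison 57 copies passed the filter, most of them through U251T, where 53 were called higher and 3 lower. Over all genes tested, 39.3% were called higher in U251T and 47.6% lower. With carmofur, 60 passed, of which 57 were higher in U251T and 3 lower, beside 37.1% and 49.1% of all genes. As most copies passed through the libraries where they were high, the filter largely set their direction. The same filter left 1401 pseudogenes outside the rule in vehicle, of which 1312 were higher in U251T and 78 lower. With carmofur it left 1202, of which 1116 were higher and 73 lower. The copies' shares in each direction thus lay close to those of other pseudogenes.

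A few copies of MT-CO3 carried most of the copy counts in U251T. The 37 MT-CO3 copies, 24 of them with counts, held 77.9% of U251T copy counts and 0.380% of U251P copy counts. MTCO3P13 alone held 50.2% to 54.8% of copy counts in the 6 U251T libraries. It stood at 10227, 10893 and 10520.1 CPM in U251T vehicle and at 13493, 15146 and 16503 CPM in U251T carmofur, while the 6 U251P libraries held 4 counts of it in all. The ratio of pooled CPM was 90537 (exact 95% counting interval 35359 to 332293). In the same U251T libraries MT-CO3 itself had 344 counts against 85695 for this copy.

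MTCO3P17 was at 2639, 2437 and 2766 CPM in U251T vehicle and at 3488, 3657 and 3975 CPM in U251T carmofur, with 1 count in U251P. MTCO2P17, which lies in the same block of 8 copies on chromosome 2, was at 1544, 1621 and 1699 CPM with vehicle and at 1820.0, 1873 and 2145 CPM with carmofur, again with 1 count in U251P. MTCO3P22, on chromosome 5, was at 1099, 920.4 and 1261 CPM with vehicle and at 1515, 1516 and 1517 CPM with carmofur, with 3 counts in U251P. These copies were high in all 6 U251T libraries and at or near 0 in all 6 U251P libraries. MTCO3P35 had 6388 counts in U251T and 0 in U251P, at least 8999-fold higher in U251T with a floor of 3 counts over the U251P libraries. MTND6P21, a copy of MT-ND6, had 4191 and 0 counts, at least 5904-fold higher. MTCO3P24, MTATP6P14, MTCO2P21, MTATP6P3 and MTCO1P22 followed, with 1451 to 2805 counts in U251T and 0 to 4 in U251P. Next came MTCO1P40, with 1073 counts in U251T and 264 in U251P, and MTND5P10, with 1061 and 3.

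Copies in the same block were not at the same level. The block at chr17:22519617-22531392 held 54.7% of U251T copy counts, and nearly all of these fell in MTCO3P13 (chr17:22530612-22531392). MTATP6P3, which ends 2 bases before MTCO3P13 begins and has the same strand, had 1582 counts against 85695. The block of MTCO3P17 and MTCO2P17 held 20.6%. In all, 5 copies held 83.4% of the U251T copy counts, and a different set of 5 held 90.9% of the U251P copy counts.

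Most copy counts in U251P fell in copies near-identical to the mitochondrial gene, although only 10 of the 72 copies with counts there had an identity of 95% or more. MTATP6P1 (chr1:633696-634376, identity 98.5%) was at 115, 112 and 108 CPM in U251P vehicle and at 154, 171 and 95.5 CPM in U251P carmofur, and its highest U251T library was at 2.06 CPM. The ratio of pooled U251T to U251P CPM was 0.0108 (exact 95% counting interval 0.00517 to 0.0199). MTCO2P12 had 200 counts in U251P and 0 in U251T, at least 15.8-fold lower, and MTND4P12 had 183 and 19. These 3 copies were the ones called lower in U251T in the vehicle comparison, MTND4P12 with overlap between the libraries. MTND1P23, a copy with identity of 99.1%, had 122 counts in U251P and 0 in U251T.

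MTND2P28 (chr1:629640-630683) was the 1 copy tested in vehicle that was not called. It stood at 16.6, 17.3 and 19.0 CPM in U251P vehicle and at 17.7, 16.7 and 49.5 CPM in U251T vehicle, so that the libraries overlapped (log2 fold change 0.36, SE 0.306, edgeR adjusted p = 0.274). With carmofur it was at 9.92, 16.6 and 13.8 CPM in U251P and at 35.1, 20.4 and 60.0 CPM in U251T, without overlap and called higher in U251T (log2 fold change 1.14, SE 0.292, edgeR adjusted p = 0.000303). Without U251T vehicle replicate 3 the vehicle difference was -0.10. MTCO1P40, a copy of the 3′ part of MT-CO1 with identity of 96%, was at 5.73, 7.89 and 8.93 CPM in U251P vehicle and at 116, 145 and 203 CPM in U251T vehicle. It was the copy with the most counts outside the block at the start of chromosome 1 in U251P, and was higher in U251T by a factor of 17.2 (exact 95% counting interval 15 to 19.7).

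The block at the start of chromosome 1, which holds MTATP6P1, MTCO2P12 and MTND2P28, contained 84.8% to 91.0% of copy counts in each U251P library and 0.0872% to 0.244% in each U251T library. Grouped by identity to the mitochondrial gene, the 11 copies at 95% or more held 96.3% of U251P copy counts and 0.804% of U251T copy counts. The 34 copies between 80% and 90% held 1.36% and 62.1%, and the 253 copies between 70% and 80% held 0.905% and 31.3%. The 8 copies with an identical window of 75 bases held 87.2% of U251P copy counts and 0.136% of U251T copy counts. The longest run of identical letters shared with the mitochondrial gene was 141 bases in MTATP6P1, 266 in MTND2P28 and 56 in MTCO1P40, against 29 in MTCO3P13, 16 in MTCO3P17 and 14 in MTCO3P35. Of the windows of 75 bases in MTATP6P1, 28.0% were identical to MT-ATP6, and of those in MTND2P28, 34.3% to MT-ND2, whereas MTCO3P13, MTCO3P17, MTCO2P17 and MTCO1P40 had 0. The part of read placement in the copy counts was not tested.

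**Figure D3:**
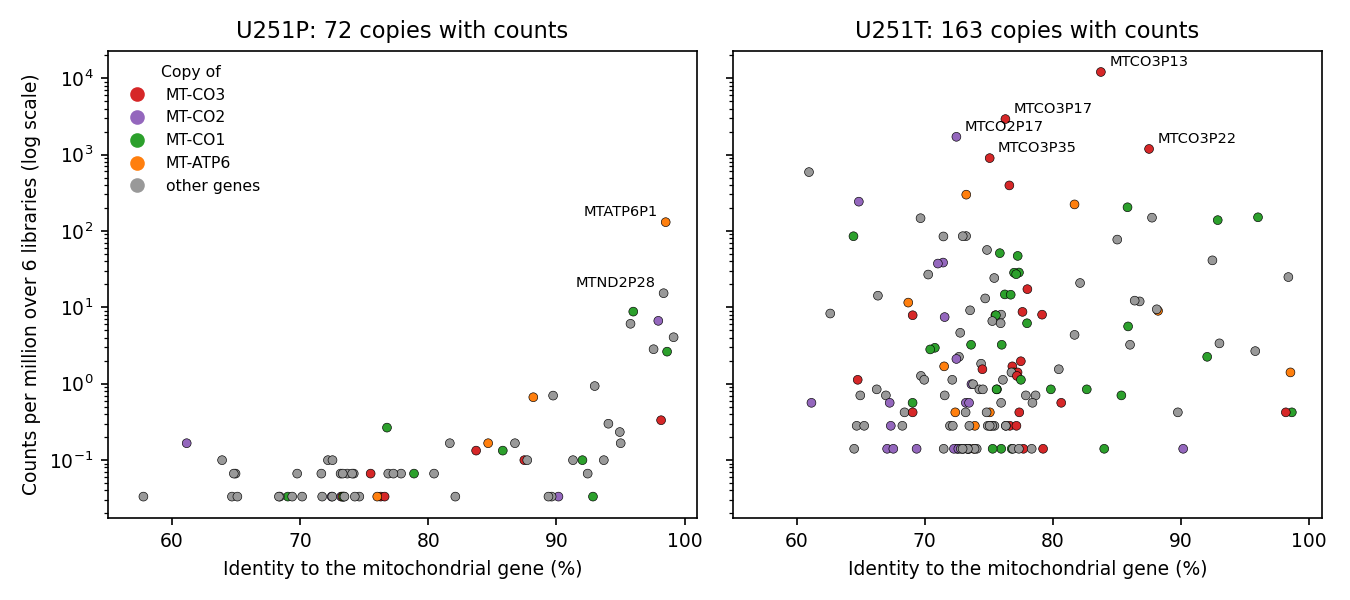
Identity of each nuclear copy to its mitochondrial gene (%, x axis) against its pooled level over the 6 libraries of a line (CPM, log scale), coloured by the gene copied, for the 72 copies with counts in U251P and the 163 with counts in U251T. The highest points lie above 95% identity in U251P (MTATP6P1, MTND2P28) and between 70% and 90% in U251T (MTCO3P13, MTCO3P17, MTCO2P17).

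The nuclear genes that transcribe, process and use mitochondrial RNA were examined in the same fits, by list. TFAM, which packages and helps to transcribe mitochondrial DNA, was at 295, 294 and 254 CPM in U251P vehicle and at 6.92, 4.61 and 3.53 CPM in U251T vehicle (log2 fold change -5.78, SE 0.223, edgeR adjusted p = 8.80e-20). POLRMT, the mitochondrial RNA polymerase, was at 23.7, 41.3 and 26.2 CPM against 0.769, 1.42 and 0. Of 10 mitochondrial transcription genes tested in vehicle, 8 were lower in U251T and 2 higher, with a median log2 fold change of -3.81. SLIRP, which stabilizes mitochondrial mRNAs, was at 291, 257 and 247 CPM against 28.4, 30.2 and 28.3, and among 26 RNA processing and decay genes 18 were lower and 7 higher. Of 76 mitochondrial ribosome genes 62 were lower and 5 higher (median -2.95), and of 37 nuclear complex I subunits 22 were lower and 9 higher (median -1.21). Complex V was mixed, with 9 of 18 nuclear subunits lower and 7 higher (median -0.40). For complex II 2 of 4 were lower and 0 higher, for complex III 7 of 9 and 1, and for complex IV 7 of 11 and 2. Of 44 complex assembly genes 30 were lower and 5 higher. PPARGC1B, a coactivator of mitochondrial biogenesis, was higher in U251T, at 47.7, 51.5 and 76.0 CPM against 3.55, 3.03 and 2.66, and its list of 10 had 5 higher and 2 lower. The 8 housekeeping genes fell in the same direction as most lists, with 7 lower and 0 higher (median -1.85). Over all genes 47.6% were lower and 39.3% higher (median -0.33).

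In U251P, the question was whether carmofur changed MT- genes or copies, and no member passed the test. Of 31 MT- genes and 8 copies tested, 0 had an edgeR adjusted p under 0.05, as was so for 0% of all 11426 genes. At an unadjusted p under 0.05 there were 7 of 39 members, beside 402 of all 11426 genes, and DESeq2 called 0 members. All 13 mRNAs had a log2 fold change above 0, between 0.02 and 0.32 with a median of 0.19, while 6 of 16 transfer RNAs were above 0 and 10 below. MT-ND4 was at 8251, 9589 and 9934 CPM with vehicle and at 11517, 11820 and 9947 CPM with carmofur, which just separated the groups (log2 fold change 0.29, SE 0.106, edgeR adjusted p = 0.999). MT-ND4, MT-CYB and MTCO2P12 were the 3 members whose carmofur libraries all lay above all vehicle libraries, as did 3.04% of all genes. The share of MT- genes was 2.15 points higher with carmofur in U251P and 0.215 points higher in U251T, and over all 12 libraries, permuted within line, the difference of 1.18 points did not pass (two-sided exact permutation test, p = 0.205, adjusted p = 0.246).

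In U251T, carmofur was accompanied by higher levels of several copies and of a few MT- genes. The copies took 2.54% to 3.08% of counts with carmofur and 1.95% to 2.10% with vehicle, without overlap, a mean difference of 0.779 points (two-sided exact permutation test, p = 0.1, the smallest that 3 against 3 allow). Over both lines the mean of the line differences was 0.391 points (two-sided exact permutation test, p = 0.02, adjusted p = 0.03). U251T set nearly all of this mean. Within U251P alone the difference was 0.00334 points with overlapping libraries (exact permutation test, p = 0.4). The p-value over both lines therefore does not show a difference in each of them. Without U251T carmofur replicate 3, the library with the fewest counts, the U251T difference was 0.635 points. In the same U251T libraries the summed glioma and astroglial markers were at 11705 to 14185 CPM with vehicle and 7820 to 9890 CPM with carmofur, and the summed fibroblast markers at 1744 to 2051 CPM with vehicle and 2306 to 2388 CPM with carmofur, both without overlap. Most of the first sum was VIM, at 7046 to 13534 CPM over all U251T libraries, and most of the second was COL1A1, at 1282 to 1929 CPM. The sums thus describe few genes rather than whole marker lists, and the part of these genes in the copies' difference was not tested. The number of copy counts per 1000 MT- counts overlapped between the treatments in both lines.

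Of 13 MT- genes and 44 copies tested in U251T, 3 MT- genes and 8 copies were called higher with carmofur and 0 were called lower, where 8.88% of all 7204 genes were called higher and 8.2% lower. MTCO3P13, whose values are given above, had a log2 fold change of 0.51 (SE 0.113, edgeR adjusted p = 0.00414), and MTCO3P17 one of 0.50 (SE 0.113, edgeR adjusted p = 0.00444). MTCO3P24, MTCO3P22 and MTCO3P35 were also called, at 0.60, 0.48 and 0.40, so that 5 of the 8 copies called were copies of MT-CO3. The other 3 were copies of MT-ND5: MTND5P32 (0.84), MTND5P10 (0.75) and MTND5P12 (1.51). Further copies of both genes were tested and not called, so the calls do not mark out these families. MTCO3P35 lost its call in 7 of the alternatives run, and MTCO3P22 and MTND5P12 in 3 each. MTCO2P17, in the block of MTCO3P17, had a log2 fold change of 0.26 and did not pass (edgeR adjusted p = 0.154), nor did MTATP6P3, the neighbour of MTCO3P13 (0.11, edgeR adjusted p = 0.756). Of the 44 copies, 38 had a log2 fold change above 0 and 6 below, with a median of 0.39, beside 0.01 over all genes tested and -0.06 over 1012 pseudogenes outside the rule, of which 18 were higher and 63 lower.

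Among MT- genes in U251T, MT-RNR1 was at 234, 46.5 and 196 CPM with vehicle and at 270.2, 339 and 1392 CPM with carmofur (log2 fold change 2.09, SE 0.519, edgeR adjusted p = 0.00884). MT-ND4 was at 75.3, 12.1 and 23.0 CPM with vehicle and at 87.7, 62.1 and 242 CPM with carmofur (log2 fold change 1.72, SE 0.514, edgeR adjusted p = 0.0270), and MT-ATP6 at 27.7, 9.58 and 23.0 against 40.2, 23.2 and 119.9 CPM (1.52, edgeR adjusted p = 0.0389). Vehicle replicate 2 was the lowest and carmofur replicate 3 the highest library for all 3 genes, and for MT-ND4 and MT-ATP6 the remaining libraries of the treatments overlapped. MT-RNR2, with far more counts, was at 3805, 3318 and 3713 CPM with vehicle and at 4716, 3701 and 5779 CPM with carmofur and did not pass (log2 fold change 0.38, SE 0.136, edgeR adjusted p = 0.0616). Without carmofur replicate 3, 0 MT- genes and 6 copies were called, and all 6 were among the 8. Other libraries left out moved the split the other way. Without vehicle replicate 1, 9 MT- genes and 3 copies were called, and without carmofur replicate 2, 11 MT- genes and 6 copies. DESeq2 called 2 MT- genes and 7 copies, and 8 of these 9 members were among the 11 of edgeR. Of the 57 members tested, 15 had all carmofur libraries above all vehicle libraries (2 MT- genes and 13 copies), against 15.8% of all genes. In that direction MALAT1, a nuclear-retained RNA, was also called higher (log2 fold change 0.70, SE 0.157).

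Among the nuclear genes of the mitochondrial lists, calls with carmofur in U251T were single genes or a pair per list, to be read against the 8.88% of all genes called higher and 8.2% called lower. SLIRP was at 28.4, 30.2 and 28.3 CPM with vehicle and at 57.7, 51.0 and 62.6 CPM with carmofur (log2 fold change 0.93, SE 0.233, edgeR adjusted p = 0.00916), 1 of 12 RNA processing and decay genes tested. MRPL22, a protein of the large mitochondrial ribosomal subunit, was lower (log2 fold change -1.28), 1 of 42 ribosome genes. DNA2, a nuclease and helicase of DNA replication, was lower (-1.58), as was YY1, a transcription factor (-0.57), while NDUFA12, a complex I subunit, was higher (0.42), and so were NDUFAF6 and CMC2, which act in complex assembly. Complexes II to V gave 0 calls among the 2, 7, 9 and 13 subunits tested in U251T, and in U251P every list gave 0.

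Whether carmofur acted differently on the members in the 2 lines was tested by the interaction of line and treatment. Of 30 MT- genes and 66 copies tested, 0 had an edgeR adjusted p under 0.05, against 4.28% of all 13070 genes. At an unadjusted p under 0.05 there were 9 of 96 members, all of them MT- genes, beside 1978 of all 13070 genes. DESeq2 called 0 members. MT-RNR1 had the smallest adjusted p among members (difference of log2 fold changes 1.77, SE 0.536, edgeR adjusted p = 0.0518), and all 13 mRNAs had a difference above 0. For copies near 0 in U251P the interaction rests on almost no counts in that line.

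**Figure D4:**
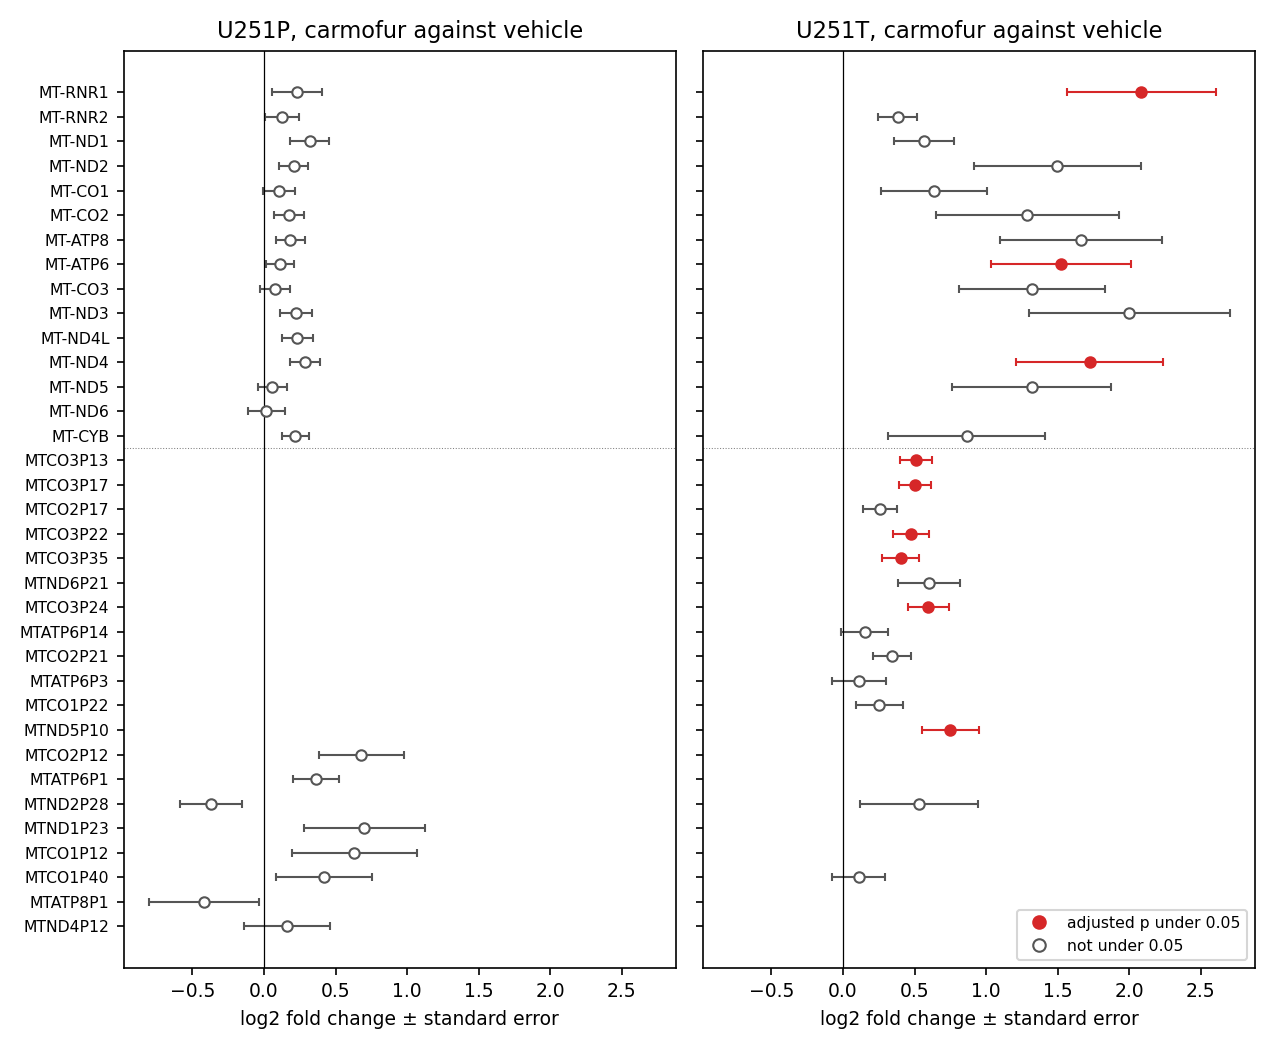
Log2 fold change of carmofur against vehicle with its standard error for the mitochondrial ribosomal RNAs and mRNAs and for nuclear copies, in U251P (left) and U251T (right), with filled red points at an edgeR adjusted p under 0.05 and no point for genes not tested. In U251P no point is filled and mRNAs lie between 0.02 and 0.32, and in U251T 3 MT- genes and 6 of the copies drawn are filled, all above 0.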

How the data were processed

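RNA from U251P and U251T cells, treated with vehicle or carmofur, was sequenced in 12 libraries (3 per group) with a QuantSeq 3′ FWD kit, as 75-base single-end reads. The authors processed the reads in the BlueBee pipeline and deposited raw counts per Ensembl gene for all libraries (build hg38 in the submitters' processing notes). The aligner, the counter, their versions, the use of strand and the handling of reads that map to several places are not given in the sources used here. Groups came from the labels.

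Symbols and positions came from GENCODE 29 by Ensembl gene ID (56531 of 60107 IDs matched, all 427 members among them). Identity was taken from local alignment of GENCODE transcript sequences with Biopython 1.88. Tests used edgeR 4.0.16 (R 4.3.3) on the deposited counts over all genes: filterByExpr, TMM scaling, quasi-likelihood F test and Benjamini-Hochberg adjustment, called at an adjusted p under 0.05. The effect of carmofur was fitted separately in the 6 libraries of each line, that of the line separately in each treatment, and their interaction in all 12. The standard errors (SE) beside edgeR fold changes were derived from the test, not estimated by the model. Each is the absolute log2 fold change divided by the square root of the F statistic. DESeq2 1.42.0 was an alternative, as the authors used it. Shares of counts were compared by two-sided exact permutation (scipy 1.17.1). The edgeR step was tested on simulated counts. Thinning and counting intervals (95%) cover counting error only, and no pair of libraries differed by less than sampling noise.

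The text names all MT- mRNAs and ribosomal RNAs, the 5 transfer RNAs with the most counts, the 12 copies with the highest mean CPM and, per comparison, up to 5 copies per direction with an adjusted p under 0.05, no overlap and the smallest p, besides listed nuclear genes (up to 4 per list) and cell type markers. MTND2P28, MTND4P12, MTND1P23, MTCO1P40, MTND5P12, MT-TK, MT-TN and the neighbours of named copies were added after their values were seen. The members and lists were chosen with earlier results of these data known. Alternatives covered scaling, filters, DESeq2, each library left out and the replicate block.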

Additional observations from a re-analysis of the deposited data

How the results depend on the processing

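Line differences in the shares of MT- genes and of copies kept direction and side of the threshold under all alternatives run. The carmofur difference in the MT- share over both lines, left without the ribosomal RNAs, was 0.345 points (exact permutation p = 0.035), and the cause was not tested. Carmofur minus vehicle in copy counts per 1000 MT- counts changed sign when a library was left out: it ran from -461 to 221 over both lines (83.4 without U251T vehicle replicate 2, 221 without U251T carmofur replicate 3) and from -922 to 441 in U251T alone, which was added after seeing the data (167 and 441 without the same libraries).

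Members called in U251T with carmofur (11) became 22 at an adjusted p under 0.1 and 6 to 17 with a library left out (17 without carmofur replicate 2, 6 without carmofur replicate 3). Counts of at least 10 in every library left fewer genes to test, with 12 members called between the lines in vehicle and 14 in carmofur. Members called in the interaction (0) became 2 at an adjusted p under 0.1, 1 with upper-quartile normalization, 1 with the members left out of scaling, 9 with no filter on low counts, and 0 to 9 with a library left out (9 without U251T vehicle replicate 1, 6 without U251T carmofur replicate 2). In U251P with carmofur 0 members were called under all alternatives run. Over all genes, calls between the lines numbered 10474 in vehicle and 3737 at 10 counts in every library, and 10051 and 3348 in carmofur. The median log2 fold change of all genes between the lines in vehicle was -0.33, and -0.40 with upper-quartile normalization, -0.60 with the members left out, -1.54 without a filter, 0.01 at 10 counts and -0.12 with DESeq2. Under upper-quartile normalization and with members left out, 53 members were higher and 31 lower in U251T, the counts of the edgeR fit in the report. The cause of these changes was not tested, apart from the smaller number of genes tested.

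The vehicle difference of MTND2P28 between the lines was -0.0074 without a filter, -0.27 at 10 counts in every library and -0.10 to 0.54 with a library left out. The interaction of MTCO1P40 was -0.68 to 0.16 with a library left out. Of the values of the other single genes named, 501 kept their direction and side of the threshold, 28 lost and 24 gained a call.

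Replicate numbers were shared between groups, but the deviations of same-numbered libraries did not correlate over 0.1 in every pair (r = 0.234, -0.028 and 0.292 in U251P, 0.082, 0.334 and 0.076 in U251T), and not every library correlated best with its own number, so the numbers were not taken as pairs. With the replicate block, members called were 27 in U251T with carmofur, 7 in the interaction, 0 in U251P with carmofur, and 83 and 85 between the lines in vehicle and carmofur. Over all genes the block gave 2078 calls in U251T with carmofur (1231 without it) and 792 in the interaction (560). Depth limits the low MT- genes of U251T, whose smallest library held 383633 counts.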
